A study of Mus musculus with 51 samples.

Results

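5-hydroxymethylcytosine (5hmC) peaks that appeared in mouse femur after withdrawal of vitamin C (VitC) were described here. They were chosen by the peak calls themselves, as the peaks of the VitC+/- femur list with a -log10 q of at least 5 that share not even 1 bp with a peak of the VitC+ femur list. This left 71188 of 399599 VitC+/- peaks (17.8%), referred to as gained peaks. The other 269964 VitC+/- peaks of this strength overlapped a VitC+ peak and are called shared, and 55121 VitC+ peaks of this strength overlapped no VitC+/- peak and are called lost.

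Both lists come from femoral bone of 20 week old mice that are homozygous for the Gulo tm1Mae allele on C57BL/6 and cannot make VitC. VitC+ mice had VitC in the drinking water throughout, and VitC+/- mice had it until week 15 and then none for 5 weeks. RNA-seq of femurs covered the same 2 groups and wild type C57BL/6 mice (WT), also 20 weeks old, with 3 libraries per group. For comparison, 5hmC lists were used from femurs of 11 week old Ctrl mice, which carry Prrx1-Cre alone, and of Tet1/2 cKO mice, in which Prrx1-Cre removes Tet1 and Tet2 in limb mesenchyme and its descendants, and from MC3T3-E1 cells, a calvarial pre-osteoblast line of mouse (subclone 4), differentiated with (VitC+) or without (VitC-) VitC for 28 days. Femurs also contain blood cells, in which Prrx1-Cre is not active. Some Gulo mice of the study also carried a Dmp1-EGFP reporter, and the labels do not say whether the mice sequenced here did. Each peak list was called once on the pooled samples of its group, so a peak has no replicate error, and the intervals given for shares of peaks cover counting error only.

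5hmC is made by the TET enzymes, which oxidize 5-methylcytosine in a reaction that needs iron and is supported by VitC. In adult tissues the methylated cytosine is mostly that of a CpG, and 5hmC is best known from gene bodies and distal enhancers of genes that are active in a cell type. hMeDIP-seq recovers DNA fragments with an antibody against 5hmC, and a peak is a place where recovered fragments outnumber those of the local background.

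A pair of the gained peaks with the highest -log10 q is shown first, followed by the strongest gained peak near Fst and near Fkbp5, genes whose RNA was much higher in VitC+/- than in VitC+ femurs. Each line gives 300 bp around the summit, plus strand, mm10 (GRCm38), with CpG sites in capitals, so that the number of possible CpG targets of TET enzymes can be seen.
femur peak, chr14:73881041-73881340: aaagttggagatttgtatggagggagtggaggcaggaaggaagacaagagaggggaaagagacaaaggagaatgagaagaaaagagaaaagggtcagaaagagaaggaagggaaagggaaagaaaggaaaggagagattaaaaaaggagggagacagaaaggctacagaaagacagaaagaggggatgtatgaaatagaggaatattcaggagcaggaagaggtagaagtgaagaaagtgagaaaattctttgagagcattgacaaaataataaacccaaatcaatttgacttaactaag
femur peak, chr14:66366688-66366987: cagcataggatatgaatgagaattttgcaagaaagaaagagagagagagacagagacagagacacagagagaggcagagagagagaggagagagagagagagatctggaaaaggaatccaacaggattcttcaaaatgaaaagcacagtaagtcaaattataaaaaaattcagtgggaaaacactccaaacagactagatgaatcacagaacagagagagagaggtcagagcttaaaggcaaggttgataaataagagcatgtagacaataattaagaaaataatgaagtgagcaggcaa
femur peak near Fst, chr13:114438733-114439032: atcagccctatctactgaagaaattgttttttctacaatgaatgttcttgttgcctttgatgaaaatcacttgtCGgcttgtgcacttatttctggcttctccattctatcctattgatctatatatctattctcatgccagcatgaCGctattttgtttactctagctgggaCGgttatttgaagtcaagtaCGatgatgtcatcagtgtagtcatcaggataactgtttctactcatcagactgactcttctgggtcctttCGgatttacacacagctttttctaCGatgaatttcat
femur peak near Fkbp5, chr17:28457776-28458075: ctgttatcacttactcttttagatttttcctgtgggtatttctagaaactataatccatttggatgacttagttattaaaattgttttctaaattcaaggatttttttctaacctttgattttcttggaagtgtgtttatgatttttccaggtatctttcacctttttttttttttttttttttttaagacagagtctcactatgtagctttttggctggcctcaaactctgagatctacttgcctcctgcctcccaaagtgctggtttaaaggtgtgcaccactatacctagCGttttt

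The 2 peaks chosen for their -log10 q had no CpG in these 300 bp and consisted mainly of A and G on this strand. In contrast, the peak near Fst held 6 CpG sites and the peak near Fkbp5 held 1.

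Gained peaks were narrow and of modest strength, partly because the rule selects for this. Their median width was 293 bp (quartiles 251 and 370), compared to 404 bp for shared and 284 bp for lost peaks. Their fold enrichment over the local background had a median of 3.74 (quartiles 3.33 and 4.28, range 1.5 to 16.1), compared to 5.21 for shared and 3.99 for lost peaks. The -log10 q lay between 5 and 10 for 49379 gained peaks, between 10 and 20 for 20060 and at 20 or more for 1749. The members closest to the threshold had a fold of 3.11 and a -log10 q of 5.003, and the first excluded peaks had a fold of 3.24 and a -log10 q of 4.998. The nearest VitC+ peak was a median of 2962 bp away, within 500 bp for 9.44% of gained peaks and within 10 kb for 83.9%. Lost peaks lay closer to the other list, with 18% within 500 bp and 95.9% within 10 kb.

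The sequence under gained peaks was poor in CpG. Of the gained peaks, 28.7% (95% Wilson interval 28.3 to 29.0%) had no CpG in the 300 bp around the summit, compared to 13.4% of shared peaks, 2.09% of lost peaks and 18.5% of 119798 windows of the same length placed every 20 kb along chromosomes 1 to 19. At the other end, 3.91% of gained, 13.6% of shared and 27.4% of lost peaks had 5 or more CpG sites. The mean number was 1.47 for gained, 2.48 for shared and 3.58 for lost peaks. The share without a CpG was larger among stronger gained peaks, at 27.4%, 31.2% and 37.2% from the lowest to the highest band of -log10 q. Shared peaks rose in the same way, with 9.87%, 13.0% and 16.5%. Lost peaks went the other way, with 2.79%, 0.756% and 0.189%. G+C content followed the same order, with a median of 36.7% in gained, 38.7% in shared and 41.7% in lost peaks, and the evenly spaced windows also had 41.7%.

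**Figure D1:**
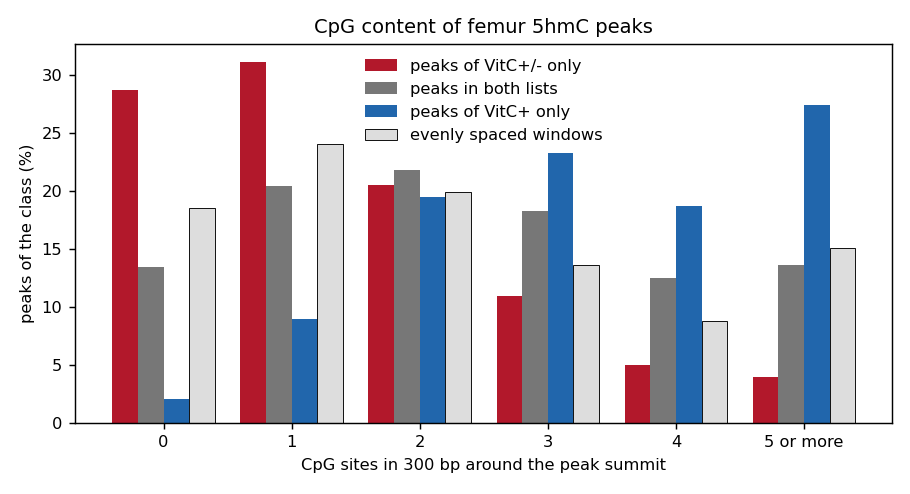
Share of femur 5hmC peaks (y axis, percent of the peaks of each class) by the number of CpG sites in 300 bp around the summit (x axis), for peaks of VitC+/- only (gained), of both lists (shared) and of VitC+ only (lost), and for evenly spaced windows of the genome. Gained peaks are most frequent at 0 and 1 CpG (28.7% and 31.1%), and lost peaks at 5 or more (27.4%).

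Repeats were common under gained peaks. The soft-masked part of the reference, which marks interspersed and simple repeats, covered a median of 45% of the window in gained, 25.7% in shared and 15.3% in lost peaks, and over 50% of the window in 44.5%, 23.0% and 9.76%. Runs of at least 30 purines or 30 pyrimidines, of the kind seen in the sequences shown above, occurred in 19.8% of gained, 15.9% of shared and 5.58% of lost peaks and in 3.87% of the evenly spaced windows. Runs of at least 6 CA or TG units occurred in 11.5%, 8.59% and 6.22%, and in 4.53% of the evenly spaced windows. Both kinds of run were searched after the sequences had been seen. In total, 28.7% of gained peaks held a run of either kind, and 71.3% held neither.

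Short motifs of transcription factors, searched on both strands, were mostly less frequent under gained than under lost peaks. The RUNX motif TGTGGT, bound by the family of the osteoblast regulator RUNX2, was found in 14.1% of gained, 17.6% of shared and 22.6% of lost peaks, and in 20.0% of the evenly spaced windows. The AP-1 motif TGANTCA was found in 6.62% of gained and 10.1% of lost peaks (8.87% of windows), and the CTCF core AGGNGGC in 5.02% and 8.80% (11.0% of windows). The E-box of the MITF and TFE family, TCACGTG, which contains a CpG itself, was found in 0.723% and 2.11% (1.31% of windows), the C/EBP motif TTGCNNAA in 10.9% and 14.1% (13.8% of windows) and the PU.1 motif GAGGAAGT in 1.56% and 2.13% (1.79% of windows). The exception was the GATA motif AGATAA, at 24.6% of gained, 24.1% of shared and 20.4% of lost peaks (19% of windows). The classes also differ in base composition, as given above, and its part in these shares was not tested.

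Gained peaks lay farther from genes than shared and lost peaks. Of the gained peaks, 59.8% (59.5 to 60.2%) were intergenic, compared to 40.6% of shared and 34.7% of lost peaks. Introns held 37.1% of gained, 53.4% of shared and 57.0% of lost peaks, and exons 1.77%, 3.68% and 5.52%. Only 1.26% of gained peaks, or 894, had their summit within 1 kb of a transcription start site, compared to 2.23% and 2.76%. The median distance to the nearest start site was 52.6 kb for gained, 33.3 kb for shared and 26.9 kb for lost peaks, and it reached 73.9 kb for gained peaks with a -log10 q of 20 or more. Across 2386 segments of 1 Mb with at least 30 VitC+/- peaks, gained peaks made up between 2.88% and 69.9% of gained and shared peaks, with a median of 20.0%. In the 93 segments without a start site this share was 41.0%, and in segments with 1 to 5 start sites 29.5%. With 16 to 30 start sites the share was 15.4%, but with over 30 it was higher again, at 20.0%. The share thus did not fall steadily with the number of start sites. Whole chromosomes differed less, from 18.4% on chromosome 19 to 23.8% on chromosome 7.

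Gained peaks were rarely part of the other 5hmC lists, with 1 exception. To learn whether the places that gained a peak carry 5hmC in other bone samples, overlaps of at least 1 bp were counted. Only 7.71% of gained peaks (7.52 to 7.91%) overlapped a peak of Ctrl femurs, whereas 45.7% of shared and 53.1% of lost peaks did. In Tet1/2 cKO femurs these shares were 3.0%, 26.1% and 27.7%, and in MC3T3-E1 VitC+ cells 7.76%, 35.9% and 38.6%. Of the evenly spaced windows, 14.6% overlapped the Ctrl list, 6.99% the Tet1/2 cKO list and 11.2% the MC3T3-E1 VitC+ list, so that gained peaks were below this background in each of the 3 lists. The exception was MC3T3-E1 cells without VitC, with 20.5% of gained peaks (20.2 to 20.8%) against 9.60% of the windows. Lost peaks overlapped the same list in 19.2% and shared peaks in 40.1%. In total, 70.8% of gained peaks were in no other 5hmC list, compared to 26.9% of shared and 33.3% of lost peaks, and 446 gained peaks (0.627%) were in all of the other lists. The rule leaves out places with a VitC+ femur peak, where 11.9% of the windows lay. Shared peaks were chosen for presence in both femur lists of Gulo mice. The choice of peaks thus bears on these shares, and its part was not tested.

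**Figure D2:**
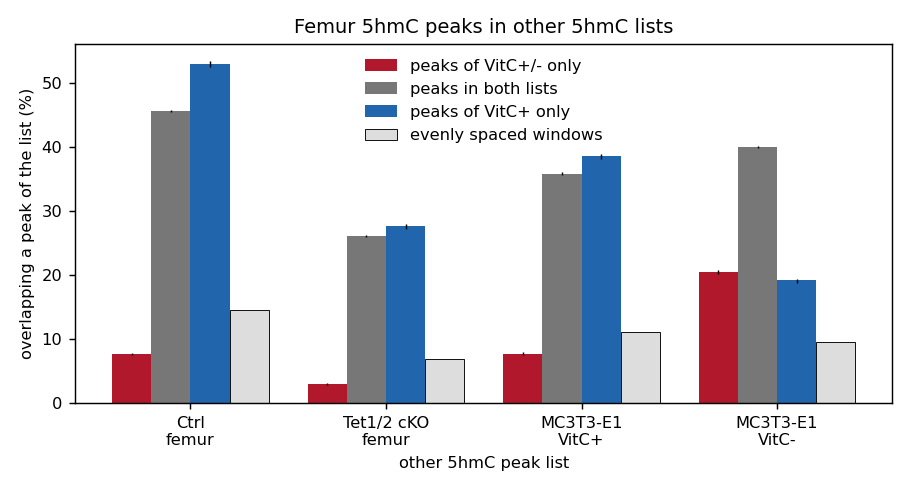
Share of femur 5hmC peaks (y axis, percent) that overlap a peak of 4 other 5hmC lists (x axis), by class, with 95% Wilson intervals as error bars, and the same share for evenly spaced windows of 300 bp. Gained peaks (VitC+/- only) are below the windows in the Ctrl, Tet1/2 cKO and MC3T3-E1 VitC+ lists and above them, at 20.5%, in the MC3T3-E1 VitC- list.

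Of the gained peaks, 18% were in the MC3T3-E1 list without VitC and not in that with VitC, and 5.29% the other way round. For lost peaks these shares were 7.38% and 26.9%. The overlap with the VitC- cells was larger among stronger gained peaks, from 18.8% through 23.5% to 33.8% over the bands of -log10 q, while that with VitC+ cells was smaller, from 8.33% through 6.69% to 4.06%. Shared peaks also rose with VitC- cells, from 26.8% through 34.8% to 55.0%, and with VitC+ cells, from 32.3% through 34.1% to 40.4%. Lost peaks had 19.4%, 18.6% and 18.9% with VitC- cells and 35.5%, 44.0% and 52.6% with VitC+ cells. The VitC- list covers 144 Mb and the VitC+ list 195 Mb. The cells and the femurs differ in age of the culture or animal, cell types and processing, and the part of these in the overlap was not tested.

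The number of CpG sites moved with these overlaps in every class. Among gained peaks without a CpG, 25.9% were in the MC3T3-E1 VitC- list and 1.51% in the VitC+ list. Among gained peaks with 5 or more CpG sites, the shares were 18.8% and 28.3%. Shared peaks showed a wider range, with 65.6% in the VitC- and 9.69% in the VitC+ list at 0 CpG, and 25.3% and 59.8% at 5 or more. In the evenly spaced windows the VitC- list held 9.94% at 0 CpG and 9.12% at 5 or more, whereas the VitC+ list held 3.0% and 22.0%. The overlap of gained peaks with Ctrl femurs also rose with CpG number, from 2.78% to 36.2%, against 4.01% and 33.6% of the windows. Gained peaks without a CpG and without a purine, pyrimidine or CA run were in the VitC- list at 26.7%, and those without a CpG but with such a run at 24.6%.

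**Figure D3:**
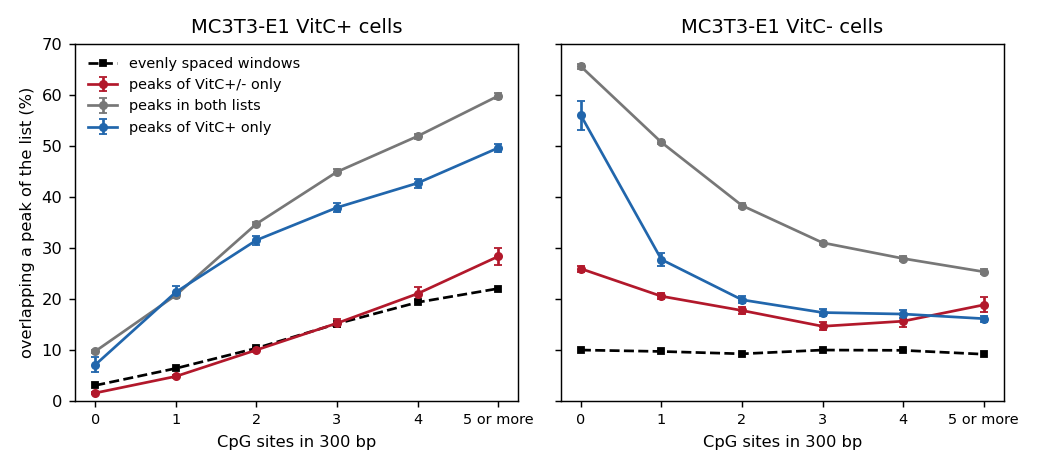
Share of femur 5hmC peaks (y axis, percent) in the MC3T3-E1 VitC+ list (left) and VitC- list (right) by CpG sites in 300 bp around the summit (x axis), for each class with 95% Wilson intervals and for evenly spaced windows (dashed line). Gained peaks (VitC+/- only) rise from 1.51% to 28.3% in the VitC+ list and go from 25.9% to 18.8% in the VitC- list.

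Repressive histone marks of MC3T3-E1 cells were found at few gained peaks. For these ChIP-seq samples the labels give the 28 days of culture, whereas a shorter treatment is described in the methods, so their age is uncertain. H3K9me3, a mark of silent repeats and heterochromatin, was present at 3.58% of gained, 2.72% of shared and 2.66% of lost peaks in the VitC- list and at 2.42%, 1.48% and 1.21% in the VitC+ list, compared to 3.27% and 2.25% of the evenly spaced windows. H3K27me3, the mark of Polycomb silencing, was present at 6.44%, 7.64% and 9.83% in the VitC- list and at 4.29%, 5.38% and 6.75% in the VitC+ list, and in 10.8% and 7.08% of the windows. Gained peaks were therefore near the background for H3K9me3 and below it for H3K27me3. The 2 VitC- lists cover more of the genome than the VitC+ lists, with 66.1 against 43.1 Mb for H3K9me3 and 233 against 145 Mb for H3K27me3.

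RNA of the same groups was used to see which genes lie near gained peaks and how their expression differed. Values are RPKM (reads normalized to transcript length and library size) after scaling of each library, and a gene is near a peak when the midpoint of the peak is within 30 kb of its start site. Gulo, the gene inactivated in both groups with peaks, was at 0.0126 to 0.180 RPKM, as deposited, in the 6 knockout libraries. The WT libraries had 0.522, 0.486 and 0 RPKM, so the one labelled WT replicate 3 did not match its label in this respect. All of these values lie below the 1 RPKM of the filter, near the floor, so they cannot settle the label. Values against WT rest on WT replicate 3 too, and those without it are given with the sensitivity of the results. P-values measure the spread between these libraries, which are stated to come from separate animals. Per the methods of the paper, femurs were flushed and minced for RNA, whereas the DNA of the femur peaks came from decalcified femurs. The part of marrow left after flushing in the RNA values was not tested. In such mixed tissue fewer cells of a type and less RNA per cell cannot be told apart.

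Of the gained peaks, 18769 (26.4%) were near a gene whose start site could be placed, and 14459 of 21884 placed genes (66.1%) had at least 1. Genes with little RNA had the most. Genes with a mean below 0.1 RPKM in VitC+ femurs had on average 1.67 gained and 0.803 lost peaks, whereas genes with 10 to 100 RPKM had 1.06 gained and 1.94 lost peaks and genes of 100 RPKM and over had 1.01 and 1.86. Gained peaks thus made up 27.8% of gained and shared peaks at genes below 0.1 RPKM and 12.4% at genes with 10 to 100 RPKM.

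Genes of osteoblasts and osteocytes, the cells that form and maintain bone matrix, had few gained peaks. Counts for lists are summed over genes, so that a peak near several genes of a list counts for each of them. The 23 placed genes of this list had 12 gained and 94 lost peaks near them (12 and 87 distinct peaks), or 0.522 and 4.09 per gene, compared to 1.14 and 1.89 for all 12091 genes tested for RNA. None of the 23 had more gained than lost peaks and 22 had fewer, compared to 25.3% and 51.8% of the tested genes. No gained peak was near 12 of them, among these Bglap (osteocalcin), Bglap2 and Col1a1 (the first chain of type I collagen), which had 5, 4 and 4 lost peaks. None of the list had 3 or more gained peaks. With a window of 10 kb the list had 3 gained and 33 lost peaks, and with 100 kb 59 and 242, which are 2.57 and 10.5 per gene against 3.88 and 6.04 for all tested genes. These 2 windows were added after the count had been seen. Of its 22 tested genes, 1 was higher and 9 were lower in VitC+/- than in VitC+ femurs, compared to 5.93% and 7.52% of all genes tested. Against WT femurs 4 of the 22 were higher and 2 lower, compared to 15.3% and 15.9% of all genes tested.

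Lists of blood cells differed in their numbers of gained and lost peaks. The 9 placed erythroid genes had 18 gained and 9 lost peaks, and the 16 neutrophil genes had 29 and 20 (25 and 17 distinct peaks). The 16 genes of the interferon response had 28 gained and 26 lost peaks, the 16 B cell genes 20 and 25, the 14 genes of monocytes and macrophages 23 and 21, and the 18 adipocyte genes 28 and 27. Glucocorticoid and stress response genes had 15 gained and 41 lost peaks (15 and 32 distinct) near 15 genes, of which 12 were higher in VitC+/- femurs and none lower. Hypoxia and glycolysis genes had 13 and 37 near 14 genes, and osteoclast genes 17 and 34 near 18 genes, of which 7 were higher. Megakaryocyte genes had 26 and 36, fibroblast and perivascular genes 24 and 33, chondrocyte genes 23 and 21, endothelial genes 20 and 20, T and NK cell genes 21 and 23, and skeletal muscle genes 10 and 11. Of the B cell genes 12 of 15 tested were lower and of the interferon genes 13 of 16, with medians of -1.88 and -1.50 on the log2 scale, although their numbers of gained and lost peaks were close. Over all genes tested, 5.93% were higher and 7.52% lower in VitC+/- than in VitC+ femurs. The summed RNA of whole lists also moved between the groups. In VitC+/- libraries neutrophil markers were below the VitC+ range, with 7530 to 25200 against 30400 to 48300 RPKM. The same was true of chondrocyte (50.5 to 75.4 against 250 to 774), interferon (68.9 to 105 against 215 to 268), megakaryocyte (203 to 281 against 330 to 849) and T and NK cell genes (19.9 to 29.5 against 32.6 to 48.1). Erythroid genes, at 403 to 561 against 292 to 369 RPKM, and osteoclast genes, at 3370 to 6950 against 2200 to 2930, were above it. Adipocyte markers ranged from 456 to 3480 against 253 to 481 RPKM and overlapped. Such sums rest mainly on the most abundant genes of a list. S100a9 and S100a8, with VitC+ means of 15900 and 11900 RPKM, both missed the threshold (limma adjusted p = 0.0707 and 0.0638). Of tested neutrophil genes 3 of 16 were lower, of chondrocyte genes 3 of 10 and of megakaryocyte genes 6 of 16. Of T and NK cell genes 2 of 12 were lower, and of erythroid genes 2 of 9 were higher. The part of cell composition in the numbers of peaks was not tested.

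**Figure D4:**
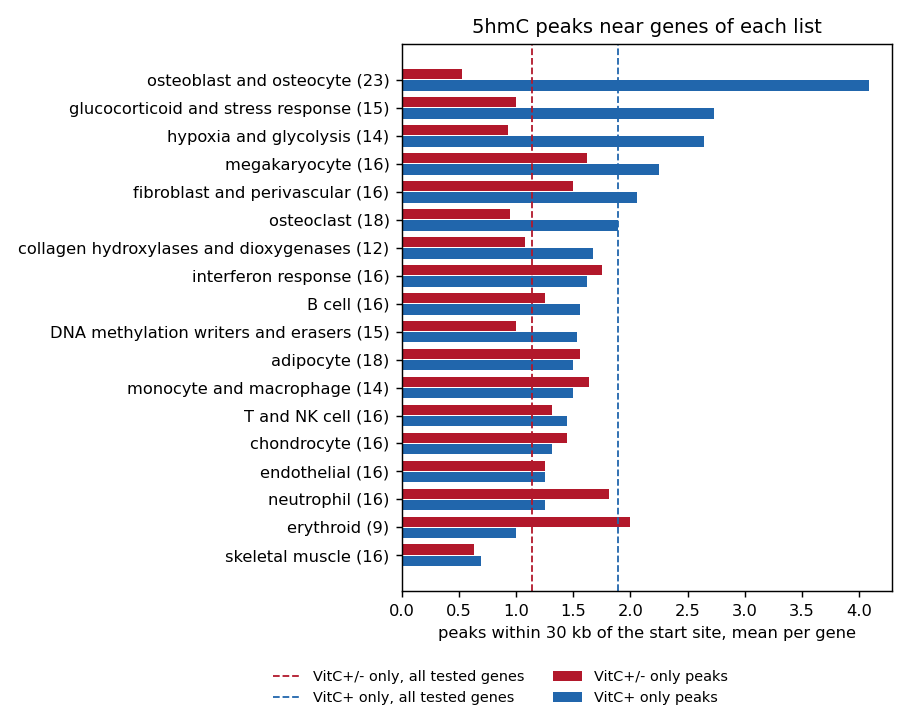
Mean number of gained (VitC+/- only) and lost (VitC+ only) femur 5hmC peaks within 30 kb of the start site (x axis, peaks per gene) for each gene list (y axis, with the number of placed genes), with dashed lines at the means of all tested genes (1.14 and 1.89). The osteoblast and osteocyte list has 0.522 gained and 4.09 lost peaks per gene, and erythroid and neutrophil genes have more gained than lost peaks.

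Presence of gained peaks near a gene did not go with higher RNA. Of all 12586 genes tested, 746 were higher (5.93%) and 946 lower (7.52%) in VitC+/- than in VitC+ femurs (limma, Benjamini-Hochberg adjusted p below 0.05). Of the 1600 tested genes with 3 or more gained peaks, 76 were higher (4.75%) and 135 lower (8.44%), and their median difference was -0.01 on the log2 scale. Of the 4584 genes with no gained peak, 6.68% were higher and 6.81% lower, with a median of 0.04. Where gained peaks exceeded lost peaks by 3 or more, 4.21% of 617 genes were higher, 10.4% were lower and the median was -0.04. Of 231 tested genes with a gained summit within 1 kb of the start site, 13 were higher (5.63%) and 23 lower (9.96%), again with a median of -0.01. Each of these 3 sets with gained peaks had a smaller share of higher genes and a larger share of lower genes than all tested genes. The gaps were less than 3 percentage points. The 218 genes with 5 or more gained peaks did not share this pattern. Both of their shares were smaller than those of all tested genes, at 3.21% higher and 6.88% lower. The shift of the 3 sets was not particular to gained peaks. Among the 2188 genes where lost peaks were in excess by 3 or more, the higher share was 5.39% and the lower share 8.64%. The differences in share were not tested. The numbers of calls depend on single libraries. Without VitC+ replicate 1, 2 or 3 or VitC+/- replicate 1 the genes with 3 or more gained peaks gave 27, 18, 21 or 17 higher and 67, 52, 54 or 47 lower calls, and all genes 276, 165, 235 or 171 higher and 416, 325, 338 or 316 lower calls. Without the scaling of libraries the balance over all genes turned, to 473 higher and 403 lower, with a median of 0.13 instead of 0.02. Genes with 3 or more gained peaks then gave 43 higher and 56 lower calls, with a median of 0.10.

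Compared with WT femurs, using the same VitC+/- libraries, 1931 of all genes were higher (15.3%) and 2003 lower (15.9%). Of the 1600 genes with 3 or more gained peaks, 210 were higher (13.1%) and 301 lower (18.8%), with a median of -0.05. Of the 218 genes with 5 or more, 8.72% were higher and 21.1% lower, with a median of -0.13. The genes where lost peaks were in excess by 3 or more went the other way here, at 18.9% higher and 13.0% lower. Without WT replicate 3, the library with no Gulo RNA, the genes with 3 or more gained peaks gave 106 higher and 184 lower calls (all genes 1134 and 1140), and without VitC+/- replicate 1 they gave 107 and 192 (all genes 1139 and 1255).

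The tested gene with the most gained peaks was Klra7, which encodes a receptor of natural killer cells, with 9 gained and no lost peaks. It had 3.73, 2.31 and 1.53 RPKM in VitC+ and 0.585, 0.490 and 0.276 in VitC+/- libraries. The groups did not overlap, but the difference of -1.62 ± 0.58 (SE, log2 scale) missed the threshold (limma adjusted p = 0.0912). It passed with only the 6 libraries of the comparison (limma adjusted p = 0.0165). Leaving out any 1 VitC+ or VitC+/- library from the fit of all 9 libraries, it again missed the threshold (0.128 to 0.238). The fit of 6 libraries was not repeated with 1 left out. Against WT libraries, with 12.3, 3.25 and 1.49 RPKM, it fell by 2.28 ± 0.58 (limma adjusted p = 0.0167). The summed RNA of T and NK cell genes was also below the VitC+ range, as given above. Klra7, the zinc finger genes Zfp942 and Zfp943, which share their 8 gained peaks, and the olfactory receptor gene Olfr1033, with 8, belong to multigene families whose members can be nearly identical, so reads of both assays may be split between copies. The other genes at the top of this order were Dock10, a guanine nucleotide exchange factor of white blood cells, Lpxn, encoding the adaptor protein leupaxin, Arid4b and its neighbour Ggps1, which share their peaks, and Tlr4, the receptor of bacterial lipopolysaccharide, with 8 gained peaks each, and Rnf13, a ubiquitin ligase, with 7. Of these 10 genes only Arid4b, which encodes a chromatin protein, passed the threshold against VitC+ femurs. It had 3.65, 4.20 and 4.82 RPKM in VitC+ and 7.18, 6.86 and 6.91 in VitC+/- libraries, a rise of 0.67 ± 0.16 (limma adjusted p = 0.0294). The call was lost when any 1 of these 6 libraries was left out, with adjusted p between 0.0569 and 0.101.

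Of the 2439 tested genes with at least 2 gained peaks and a mean of 5 RPKM or more in the higher group, 156 (6.4%) were higher and 213 (8.73%) lower in VitC+/- femurs past the threshold and without overlap of the groups. Of all 8330 genes at this level the shares were 7.06% and 7.65%. The genes described next are those with the largest changes of this set. The largest rise was that of Fst (chromosome 13, 114452262 to 114458730, minus strand), which encodes the activin antagonist follistatin. It had 3.39, 1.86 and 2.42 RPKM in VitC+ and 13.0, 14.7 and 22.3 in VitC+/- libraries, a rise of 2.48 ± 0.28 (limma adjusted p = 0.00171), and all VitC+/- libraries were far above the others. Its gained peaks lay 7.96 and 19.8 kb downstream of the start site, beyond the end of the gene, and both were also in the MC3T3-E1 VitC+ list. Fst also had 5 lost and 10 shared peaks.

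Fkbp5, a glucocorticoid-induced chaperone of steroid receptors, had 11.6, 15.5 and 10.8 RPKM in VitC+ and 46.0, 75.6 and 36.8 in VitC+/- libraries. It rose by 1.98 ± 0.28 (limma adjusted p = 0.00434). Its 2 gained peaks were in introns, 11.8 and 28.2 kb downstream of the start site, and in none of the other 5hmC lists, and it also had 2 lost peaks. Eya2, a transcriptional cofactor and phosphatase, had 2.39, 1.20 and 1.56 RPKM in VitC+ and 5.58, 6.27 and 9.17 in VitC+/- libraries (1.77 ± 0.25, limma adjusted p = 0.00392). Both of its gained peaks were upstream of the start site used, in an intron of a longer model, and were present in Ctrl and Tet1/2 cKO femurs. Cyp1b1, a cytochrome P450 of steroid and xenobiotic metabolism, had 8.45, 6.93 and 8.79 RPKM in VitC+ and 21.9, 35.1 and 29.7 in VitC+/- libraries (1.76 ± 0.20, limma adjusted p = 0.00172). Its 3 gained peaks were also in the Ctrl and the MC3T3-E1 VitC+ lists.

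The ubiquitin ligase gene Rnf125 and the Wnt receptor gene Fzd1 completed the rises, at 1.90 ± 0.42 and 1.73 ± 0.36 (limma adjusted p = 0.0213 and 0.0169). In Rnf125 a single VitC+/- library stood apart, with 6.95, 21.7 and 6.51 RPKM against 1.76, 2.50 and 2.80 in VitC+ libraries. The same was true of Fzd1, with 5.03, 4.64 and 12.4 against 2.25, 1.06 and 1.85. The call of Rnf125 was lost without VitC+ replicate 1, 2 or 3 (adjusted p up to 0.0719) and that of Fzd1 without VitC+ replicate 2 or 3 (up to 0.0688).

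The largest falls were those of Igll1 and Vpreb1, neighbouring genes on chromosome 16 that encode the surrogate light chain of B cell precursors. Igll1 had 4.87, 12.7 and 9.77 RPKM in VitC+ and 0.160, 0.105 and 0.138 in VitC+/- libraries, a fall of 3.83 ± 0.71 on the log2 scale (limma adjusted p = 0.0116). Vpreb1 had 5.61, 10.4 and 9.47 against 0.217, 0.0790 and 0.157 RPKM (limma adjusted p = 0.0214). Igll1 had 3 gained peaks, 2 of which were also near Vpreb1. The call of Igll1 was lost without VitC+ replicate 2 (adjusted p = 0.0518) and that of Vpreb1 without VitC+ replicate 1, 2 or 3 or VitC+/- replicate 1 (up to 0.0791). The summed level of the whole B cell list was 226 to 358 RPKM in VitC+ and 197 to 238 in VitC+/- libraries, ranges that overlap, whereas 12 of its 15 tested genes were lower.

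BC055402 had 6.28, 5.37 and 7.63 RPKM in VitC+ and 0.0169, 0.0367 and 0.0607 in VitC+/- libraries, a fall of 3.67 ± 0.36 (limma adjusted p = 0.000845). The gene had 2 gained, 6 lost and 18 shared peaks. A2m, encoding the protease inhibitor alpha-2-macroglobulin, had 6 gained and 1 lost peak, the largest excess among these genes. Its level was 30.5, 8.38 and 22.5 RPKM in VitC+ and 1.73, 1.45 and 0.571 in VitC+/- libraries, a fall of 3.47 ± 0.73 (limma adjusted p = 0.0176). The call was lost without VitC+ replicate 1 or 3 or VitC+/- replicate 1 (adjusted p up to 0.0637). Col11a1, a fibrillar collagen of cartilage, had 101, 86.3 and 158 RPKM against 12.1, 2.81 and 36.1 and fell by 3.28 ± 0.74 (limma adjusted p = 0.0227), a call lost without VitC+ replicate 1, 2 or 3 or VitC+/- replicate 1 (up to 0.0793). The summed RNA of the chondrocyte list was below its VitC+ range, as given above. Cd209a, a lectin of dendritic cells and monocytes, had 7.26, 6.79 and 5.35 RPKM against 0.356, 0.307 and 0.352 and fell by 3.05 ± 0.25 (limma adjusted p = 0.000378), with 2 gained and no lost peaks.

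**Figure D5:**
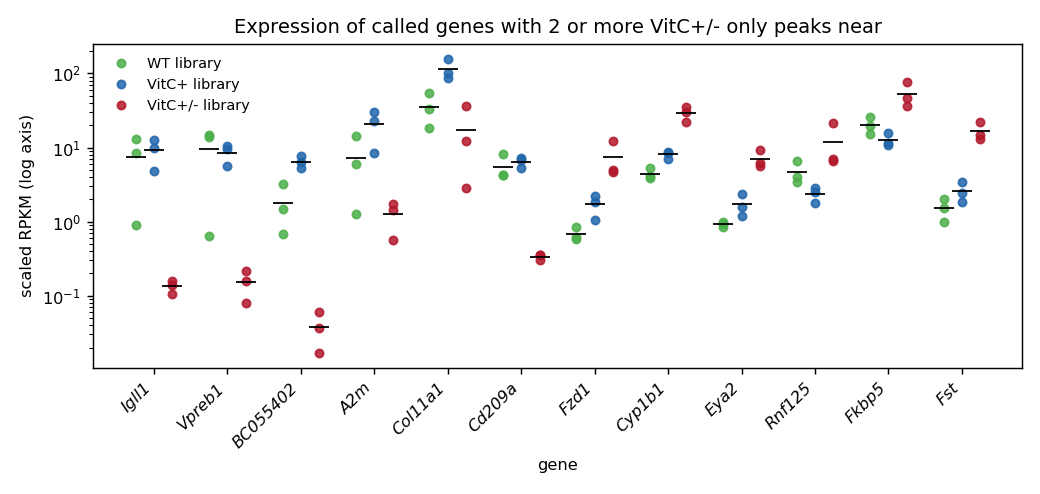
Scaled RPKM (y axis, log scale) of the 6 largest falls and 6 largest rises in VitC+/- against VitC+ femurs among genes with 2 or more gained peaks (x axis), with 1 point per library and a bar at the mean of each group of 3. The choice of genes required that VitC+ and VitC+/- libraries do not overlap, and WT libraries of Igll1 and Vpreb1 include 1 low value each (0.914 and 0.635 RPKM).

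Genes past the threshold with a gained summit within 1 kb of the start site included Ptx3, encoding the secreted pattern recognition protein pentraxin 3, with 3.26, 2.34 and 3.39 RPKM in VitC+ and 15.3, 7.95 and 20.4 in VitC+/- libraries (2.02 ± 0.31, limma adjusted p = 0.00595). The peak had a fold of 3.33 and was also in the Ctrl, Tet1/2 cKO and MC3T3-E1 VitC+ lists. The lipid droplet gene Hilpda rose by 1.17 ± 0.26 (limma adjusted p = 0.0221), a call lost without VitC+ replicate 1, 2 or 3 or VitC+/- replicate 1 (adjusted p up to 0.0861). The olfactory receptor gene Olfr920 had 0.412, 0.284 and 0.124 RPKM in VitC+ and 1.93, 1.45 and 1.13 in VitC+/- libraries. Only its VitC+/- libraries reached the 1 RPKM of the filter. The gene was thus tested only through the group where it is high, and its call is not used as a result. Without any 1 of the VitC+/- libraries it was not tested. Among the falls not yet described, the largest was that of Oas1a, an interferon-induced antiviral enzyme, with 4.63, 4.94 and 3.16 RPKM against 0.428, 0.225 and 0.266 (fall of 2.54 ± 0.23, limma adjusted p = 0.000618).

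Of the 276 placed genes of the lists, 45 had 3 or more gained peaks, and of 43 of these that were tested 7 were higher (16.3%) and 9 lower (20.9%), compared to 12.9% and 21.6% of all 255 tested genes of the lists. The neutrophil genes S100a9 and S100a8, the erythroid gene Ank1 and the adipocyte regulator Pparg had 6, 5, 6 and 6 gained peaks, some of them shared between S100a8 and S100a9. Ank1, encoding the ankyrin of the red cell membrane, had 3.71, 3.50 and 5.19 RPKM in VitC+ and 16.3, 16.7 and 10.1 in VitC+/- libraries (1.67 ± 0.31, limma adjusted p = 0.0111, and 0.0514 without VitC+/- replicate 1). S100a9 had 13100, 20200 and 14300 RPKM against 7190, 9520 and 2810, a difference of -1.43 ± 0.47 that missed the threshold (limma adjusted p = 0.0707). Sgk1, a kinase induced by glucocorticoids, had 3 gained peaks and rose by 1.71 ± 0.16 (limma adjusted p = 0.00068), from 8.66, 8.63 and 9.01 to 25.6, 37.9 and 27.3 RPKM. Tet2, 1 of the enzymes that make 5hmC, had 3 gained and no lost peaks, with 3.17, 4.70 and 3.69 RPKM in VitC+ and 8.81, 8.79 and 6.60 in VitC+/- libraries. Its rise of 0.98 ± 0.20 (limma adjusted p = 0.0153) lost its call without VitC+ replicate 1 or 3 or VitC+/- replicate 1 (adjusted p up to 0.0660). Rtp4, an interferon-induced gene with 4 gained peaks, fell by 1.48 ± 0.20 (limma adjusted p = 0.00371). With 3 gained peaks each, the chemokine receptor gene Ccr2 of monocytes fell by 1.80 ± 0.23 and the lactoferrin gene Ltf of neutrophils by 2.23 ± 0.36 (limma adjusted p = 0.00297 and 0.00734).

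Of the 10 gained peaks with the highest -log10 q, 6 were intergenic, 3 were in introns and 1 was within 1 kb of a start site. From the nearest start site 3 were over 100 kb away, and the others at most 27.4 kb. The first, at chr14:73880903-73881500, had a fold of 16.1 and a -log10 q of 86.6 and lay 134 kb from the nearest start site, that of Gm35517. The third, at chr14:66366601-66367564, had a fold of 12.6 and a -log10 q of 58.8 and lay 22.6 kb from the start site of Stmn4. Of the 10 peaks, 8 overlapped the MC3T3-E1 VitC- list, 1 the Ctrl list, 2 the Tet1/2 cKO list and 0 the MC3T3-E1 VitC+ list. Only 2 of the nearest genes were, by name, among the placed genes tested for RNA. One was Ccny, encoding cyclin Y, whose intron held the fourth peak and which had 15.3, 15.0 and 17.2 RPKM in VitC+ and 23.7, 20.9 and 25 in VitC+/- libraries. Its rise of 0.53 ± 0.12 (limma adjusted p = 0.0259) lost its call without VitC+ replicate 1, 2 or 3 or VitC+/- replicate 1 or 3 (adjusted p up to 0.0970).

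The other was Dmp1, which encodes a matrix protein of osteocytes. The peak, at chr5:104199271-104200609, was 1339 bp wide with a -log10 q of 44.3, and its fold of 3.18 was the lowest of the 10. It lay in the RefSeq gene model of Dmp1, in an intron 2.11 kb from the start of that model and upstream of the start site deposited with the RNA values, 399 bp from the nearest VitC+ peak, and overlapped peaks of the Ctrl, Tet1/2 cKO and MC3T3-E1 VitC- lists. The Dmp1-EGFP reporter of some mice is driven by Dmp1 promoter sequence, and its part in this peak was not tested. Dmp1 had 62.3, 84.8 and 90.0 RPKM in VitC+ and 29.7, 28.9 and 38.5 in VitC+/- libraries. It fell by 1.27 ± 0.27 (limma adjusted p = 0.0186), with 4 lost peaks beside this gained one, and the call was lost without VitC+ replicate 2 or 3 or VitC+/- replicate 1 (adjusted p up to 0.0721).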

How the data were processed

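Per the labels, the authors mapped hMeDIP-seq and ChIP-seq reads with BWA 0.7.15.1 and called peaks with MACS2 2.1.1.20160309.6 on the pooled samples of a group, with an FDR of 0.05 stated in the methods. Deposited peak columns are the fold enrichment as a ratio over local background, the -log10 p and -log10 q values, the summit offset and, for MC3T3-E1 5hmC, the pileup signal. Lowest -log10 q values of the histone lists were 1.01. The deposited RPKM values of femurs came from reads that the authors aligned to mm10 with STAR 2.6.0b-1. Read counts were not used here. Sequences and positions of some peaks are not reported here.

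Peaks of chromosomes 1 to 19 were compared by overlap of at least 1 bp. Summits, RefSeq GRCm38.p6 genes and 300 bp windows gave location and sequence. Wilson intervals have a confidence of 95%. Start sites, from the deposited gene loci and the RefSeq strand, could be placed for 12091 of 12586 tested genes, 10939 by symbol and 1152 by an older name. Libraries were scaled by the median of ratios (factors 0.757 to 1.10). Genes with at least 1 RPKM in 3 libraries were tested with limma (trend, all 9 libraries) on log2(RPKM + 0.5), with Benjamini-Hochberg adjustment at 0.05. A fold on this scale understates changes of low genes. Steps were tested on simulated data. Members and lists were chosen with earlier results of these data known. Genes were named by rules: most members, largest called changes with at least 2 members or with a summit within 1 kb of the start site, nearest genes of the 10 strongest members, and list genes with at least 3 members or of bone. Alternatives changed thresholds, gap, overlap, window, scaling, filter, pseudocount, libraries and replicate block. Software was Python 3.11.15 with pandas 2.3.3, numpy 2.4.6, matplotlib 3.10.9 and scipy 1.17.1, and R 4.3.3 with limma 3.58.1.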

Additional observations from a re-analysis of the deposited data

How the results depend on the processing

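The peak lists are pooled, so no replicate error exists for the number of gained peaks or their shares, and the RNA comparisons rest on 3 libraries a group. Gained peaks numbered 21809, 1749 and 43544 with a -log10 q of at least 10, of at least 20 and with no VitC+ peak within 2 kb, and stayed within 1.5 times with a -log10 q of at least 3, a gap of 500 bp or strong VitC+ peaks only. For these 3 stricter sets, a required overlap of 50% and stronger peaks in the other list, in this order, the share in Ctrl was 6.52, 3.66, 4.35, 6.07 and 6.35%, in Tet1/2 cKO 2.48, 1.09, 1.64, 2.19 and 1.70%, in MC3T3-E1 VitC+ 6.48, 4.06, 4.16, 6.18 and 6.39% and in MC3T3-E1 VitC- 24.3, 33.8, 20.8, 17.8 and 14.3%, and 19% in the latter with a -log10 q of at least 3. At a -log10 q of at least 10 and 20, 1.11 and 1.09% were near a start site, 1.5 and 1.37% exonic, 35.1 and 33.0% intronic and 62.2 and 64.5% intergenic. The osteoblast and osteocyte list had 3 and 59 gained and 33 and 242 lost peaks with windows of 10 and 100 kb, which was chosen after seeing the data.

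Genes with 3 or more gained peaks that were higher or lower than in VitC+ numbered 4 and 12 with a window of 10 kb (of 144), 424 and 617 with 100 kb (of 7673), 2 and 8 with a -log10 q of at least 10 (of 107), 18 and 33 with no VitC+ peak within 2 kb (of 404) and 43 and 56 with RPKM as deposited. The windows and thresholds change how many genes are counted. With a -log10 q of at least 20 no gene had 3. Leaving out 1 library gave 17 to 64 higher and 47 to 114 lower, and against WT 106 to 208 and 184 to 357. Pseudocounts, filters, quantile normalization and the 6 libraries alone stayed within 1.5 times. Over the named genes, alternatives kept direction and side of the threshold in 1078 cases, lost a call in 114, gained one in 26 and changed the sign of 9 genes in 20 cases, all of them past the threshold under neither setting. With RPKM as deposited Pparg was at 0.02 and Lrp4 at 0.01, and with quantile normalization Ggps1 at -0.0. Leaving out 1 library, these genes ranged across 0, Dock10 from -0.1 to 0.26, Zfp943 from -0.04 to 0.24, Ggps1 from -0.06 to 0.12, Pparg from -0.37 to 0.11, Gfi1 from -0.69 to 0.2, Emcn from -0.01 to 0.36, Cxcl12 from -0.32 to 0.21, Ibsp from -0.18 to 0.78 and Lrp4 from -0.28 to 0.12 on the log2 scale.

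Replicate numbers do not pair the samples (correlations of deviations from -0.19 to 0.46 over same-numbered libraries). With the number as a replicate block, 111 higher and 179 lower genes with 3 or more gained peaks were called against VitC+ (all genes 963 and 1206), and 230 and 348 against WT (2237 and 2228), and Klra7 passed against VitC+ (adjusted p = 0.0273).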

Other observations

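The gained peaks with the highest -log10 q were not spread evenly over the genome. Of 149 gained peaks with a -log10 q of at least 30, 9 (6.04%) lay within 10 Mb of Gulo on chromosome 14, a stretch that makes up 0.812% of chromosomes 1 to 19. All gained peaks together were not more frequent there, with 17.8% of gained and shared peaks against 20.9% overall. The stretch was counted after the positions of the strongest peaks had been seen. Mice of both groups are homozygous for the Gulo tm1Mae allele, and the part of this locus in the count was not tested.

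The 20417 gained peaks without a CpG and the 36241 shared peaks without a CpG differed in how often they appeared elsewhere. Of the gained ones, 2.78% were in the Ctrl list, 1.42% in the Tet1/2 cKO list and 25.9% in the MC3T3-E1 VitC- list, and of the shared ones 17.9%, 12.3% and 65.6%. Lost peaks without a CpG numbered 1150, and 56.0% of them were in the MC3T3-E1 VitC- list. The interval for these lost peaks is 53.1 to 58.8%.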
